A study of Homo sapiens with 38 samples.

Results

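The replication-dependent histone genes encode the bulk of the H1, H2A, H2B, H3 and H4 proteins that package newly copied DNA. They were taken as the protein-coding RefSeq records on chromosomes 1 and 6 whose symbols are H1-1 to H1-6 or begin with H2AC, H2BC, H3C or H4C followed by a number, in the GRCh38.p14 gene table. This gave 68 genes of 20037 protein-coding records: 6 of class H1, 17 of H2A, 18 of H2B, 13 of H3 and 14 of H4. The rule itself used no measured value, but the genes were chosen with earlier results of these data known. Each gene was described by the deposited peak regions that touched its record or the 1 kb on either side of it. The median record was 494 bp long, against 24115 bp over all protein-coding records.

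The regions came from chromatin immunoprecipitation and sequencing (ChIP-seq) of Jurkat cells, an established human T-cell acute lymphoblastic leukaemia line. The series holds 38 samples in 19 groups of 2, of which 3 groups (6 samples) are used and 16 were not analysed here. All 3 groups are wild-type cells with the control lentivirus Ctrl_LV. They were stimulated with the calcium ionophore ionomycin (500 ng/ml) and the phorbol ester PMA (50 ng/ml), and they differ in the antibody, against GATA3, BHLHE40 or the histone mark H3K27ac. The sample labels give 5 hours of stimulation and the treatment protocol gives 2 hours. Cells were fixed in 1% formaldehyde. A single leukaemia line carrying a control virus is the only model here, and nothing in the labels says that the samples of a group came from separate cultures. Each antibody has 1 list of regions for its 2 samples, so there is no value per sample, no spread between replicates and no test, and everything below is a description of these 3 lists. The depth of the samples is unknown. As a check of the line, the T-cell and leukaemia genes CD3E, CD3D, CD2, CD7, TAL1 and GATA3 all had an H3K27ac region (6 of 6), whereas the monocyte gene CD14 had no region of any list. Over all protein-coding records 73.4% had an H3K27ac region and 24.0% had no region of any list, so this is a weak check.

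Replication-dependent histone genes are transcribed strongly in S phase, when DNA is copied. They lie in clusters that gather in the nucleus at histone locus bodies, where the coactivator NPAT acts, and their messages end in a stem-loop bound by SLBP instead of a poly(A) tail. Many H2A and H2B genes are arranged head to head and share the short stretch between their starts. GATA3 is a zinc-finger transcription factor of T cells that binds GATA motifs. BHLHE40 is a basic helix-loop-helix repressor that binds E-boxes, and H3K27ac marks active promoters and enhancers.

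The 6 promoters printed here hold the sequence elements to which the results return, and are written 5′ to 3′ in the direction of the gene up to the last base before its start, from RefSeq on GRCh38.p14. Capitals mark matches on either strand to the octamer ATTTGCAT, which OCT1 binds, the TATA box TATAAA, the CCAAT box, the GATA motif GATAA and the H1 box AAACACA. H2AC20 stands for the head-to-head pairs, and its line holds the whole stretch to the start of H2BC21 (chr1:149886683-149886917, plus strand). H4C4 had the strongest GATA3 region of all 68 genes (chr6:26189113-26189312, minus strand). H1-4 (chr6:26156129-26156328, plus strand) and H1-1 (chr6:26017788-26017987, minus strand) are linker histone genes that share 3 of these elements, and of the pair H1-4 had regions of all 3 lists and H1-1 had none. H2AC18 (chr1:149842751-149842900, minus strand) and H2AC19 (chr1:149850911-149851060, plus strand) are near-identical inverted copies.
H2AC20: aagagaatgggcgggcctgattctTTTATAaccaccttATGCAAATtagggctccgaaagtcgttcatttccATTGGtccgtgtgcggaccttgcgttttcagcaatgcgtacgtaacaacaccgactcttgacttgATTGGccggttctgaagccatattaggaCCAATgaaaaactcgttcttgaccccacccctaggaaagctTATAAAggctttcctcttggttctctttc
H4C4: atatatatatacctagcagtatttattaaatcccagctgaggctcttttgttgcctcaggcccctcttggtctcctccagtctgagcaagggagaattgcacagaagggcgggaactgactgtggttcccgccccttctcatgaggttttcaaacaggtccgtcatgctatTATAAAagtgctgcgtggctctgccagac
H1-4: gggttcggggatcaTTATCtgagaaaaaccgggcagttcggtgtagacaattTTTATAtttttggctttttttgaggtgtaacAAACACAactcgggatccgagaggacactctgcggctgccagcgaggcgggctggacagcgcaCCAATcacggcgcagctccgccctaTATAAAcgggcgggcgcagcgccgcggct
H1-1: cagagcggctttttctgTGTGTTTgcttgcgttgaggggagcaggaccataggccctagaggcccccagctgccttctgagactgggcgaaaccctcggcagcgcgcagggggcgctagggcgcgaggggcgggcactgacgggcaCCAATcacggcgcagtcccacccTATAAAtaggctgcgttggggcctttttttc
H2AC18: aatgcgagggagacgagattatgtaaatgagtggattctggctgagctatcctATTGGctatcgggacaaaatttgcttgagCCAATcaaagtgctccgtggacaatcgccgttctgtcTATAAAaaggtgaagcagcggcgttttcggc
H2AC19: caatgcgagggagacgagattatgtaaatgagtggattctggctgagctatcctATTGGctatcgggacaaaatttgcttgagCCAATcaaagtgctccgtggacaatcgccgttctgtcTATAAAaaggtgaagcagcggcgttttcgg

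Most histone genes had regions of BHLHE40 and of H3K27ac, and a majority had a GATA3 region as well. BHLHE40 regions were found at 56 of the 68 genes (82.4%), against 57.7% of all protein-coding records. H3K27ac regions were found at 58 genes (85.3%), against 73.4%, and GATA3 regions at 43 (63.2%), against 42.8%. All 3 lists met at 42 genes (61.8%), against 37.1%, so that 42 of the 43 genes with GATA3 also had both other lists. The exception was H2BC6, which had a GATA3 region of signal value 6.98 and neither of the others. No region of any list was found at 9 genes (13.2%), against 24.0% of all records. These 9 were H4C14, H3C14 and H3C15 on chromosome 1, and H2AC1, H2BC1, H1-1, H1-6, H3C6 and H4C7 on chromosome 6.

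Long records have more room for a region, and histone genes are short. Of the 60 histone genes whose record was at most 2 kb long, 61.7% had a GATA3 region, 81.7% a BHLHE40 region and 85.0% an H3K27ac region. Over all 1257 protein-coding records of that length the shares were 10.2%, 19.4% and 26.2%, and 72.2% had no region of any list. These 1257 records include the 60 histone genes. The histone genes gave 37 of its 128 records with GATA3, 49 of 244 with BHLHE40 and 51 of 329 with H3K27ac. Records were matched on length alone, and other differences between them, such as their activity in these cells, were not tested.

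**Figure D1:**
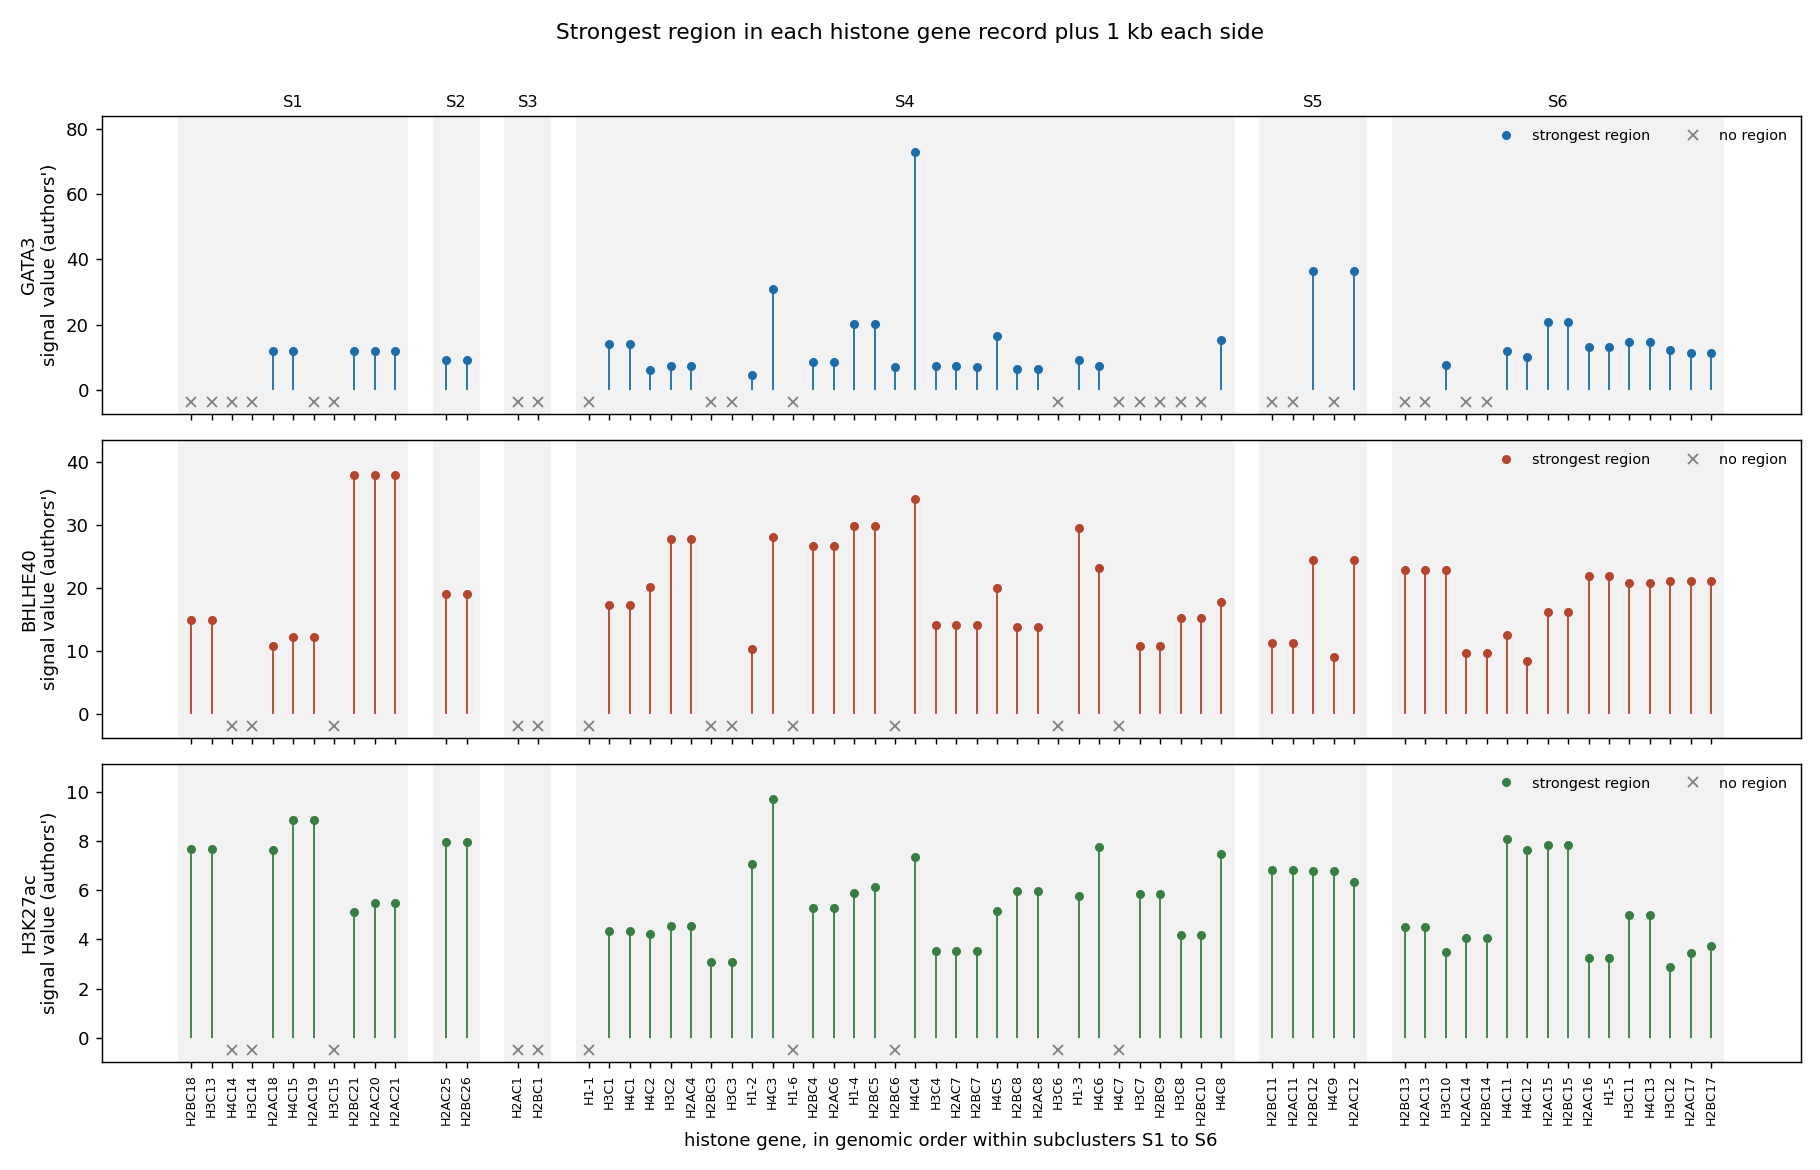
Each point is the signal value of the strongest region of GATA3 (top), BHLHE40 (middle) or H3K27ac (bottom) in the window of 1 histone gene, with the 68 genes in genomic order on the x axis and grey crosses for genes with no region. Shaded blocks S1 to S6 are the 6 subclusters. H4C4 stands above the others for GATA3 at 73.0, and neighbouring genes often carry the same value because they share a region.

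The signal value is the authors' measure of enrichment for a region, and is compared here only within a list. Among records with a region, the median of the strongest BHLHE40 signal was 18.9 at histone genes and 12.1 at all protein-coding records. The order was the opposite for GATA3, at 11.9 and 13.9, and for H3K27ac, at 5.48 and 6.35. Against records of at most 2 kb the GATA3 order turned, with 11.9 at histone genes of that length and 9.88 at all such records. The latter set includes the histone genes of that length. There the BHLHE40 medians were 18.9 and 13.0 and the H3K27ac medians 5.48 and 5.76. The strongest BHLHE40 region, of 37.8, was shared by H2BC21, H2AC20 and H2AC21 and ranked within the top 2.88% of its list. H4C4 followed at 34.1, and H1-4 and H2BC5 shared a region of 29.8. For GATA3, H4C4 at 73.0 (the top 2.17% of the list) was followed by the pair H2BC12 and H2AC12 at 36.4 and by H4C3 at 30.9. For H3K27ac the order was H4C3 at 9.70, then H4C15 and H2AC19 with a shared region of 8.87, then H4C11 at 8.06. H4C4 and H4C3, both genes for the core histone H4, were therefore among the top genes of more than 1 list.

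Because the genes lie close together, the counts over genes rest on fewer distinct regions. There were 34 BHLHE40 regions, 23 of them shared by at least 2 histone genes. GATA3 had 32 regions with 17 shared, and H3K27ac had 75 with 41 shared, and no region reached more than 3 genes. These regions were wide. Their median width was 2491 bp for BHLHE40, 1760 bp for GATA3 and 683 bp for H3K27ac, against 739, 596 and 232 bp over the whole lists of 26205, 29009 and 113570 regions. By signal, 21 of the 34 BHLHE40 regions and 41 of the 75 H3K27ac regions fell in the top 25% of their list, but only 5 of the 32 GATA3 regions did. The lists also met more often here than over the whole lists, wherever in the genome their regions lie. Regions at other gene starts were not compared separately. Of the 32 GATA3 regions at histone genes 31 overlapped a BHLHE40 region (96.9%), against 48.7% of all GATA3 regions, and 31 overlapped an H3K27ac region, against 49.1%. From the other side, 25 of the 34 BHLHE40 regions overlapped a GATA3 region (73.5%, against 53.0% of all BHLHE40 regions), and all 34 overlapped H3K27ac (76.4% over the list). The part of their width in these overlaps was not tested.

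A gap of over 250 kb between neighbouring genes divided the histone genes into 6 subclusters, S1 and S2 on chromosome 1 and S3 to S6 on chromosome 6. S1 (chr1:149782689-149887965) held 11 genes, S2 (chr1:228457364-228458558) 2, S3 (chr6:25726063-25727345) 2, S4 (chr6:26017032-26285534) 32, S5 (chr6:27132316-27147562) 5 and S6 (chr6:27807479-27893891) 16. S6 was the most evenly occupied of the larger subclusters, with BHLHE40 and H3K27ac regions at 16 of 16 genes and GATA3 at 12. S4 had GATA3 regions at 22 of 32 genes, BHLHE40 at 25 and H3K27ac at 27. S1 had them at 5, 8 and 8 of 11 genes. S5 had BHLHE40 and H3K27ac at all 5 genes and GATA3 at 2. Both genes of S2 had all 3 lists, and neither gene of S3 had any. By comparison, 42.8% of all protein-coding records had GATA3, 57.7% BHLHE40 and 73.4% H3K27ac. S1, at 45.5% for GATA3 and 72.7% for H3K27ac, was near these shares, and above the share for BHLHE40, at 72.7%. S5, with GATA3 at 2 of 5 genes, was also near the general share for GATA3. Genes of a subcluster share regions and are not independent, so the counts per subcluster were not tested against each other or against these shares.

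**Figure D2:**
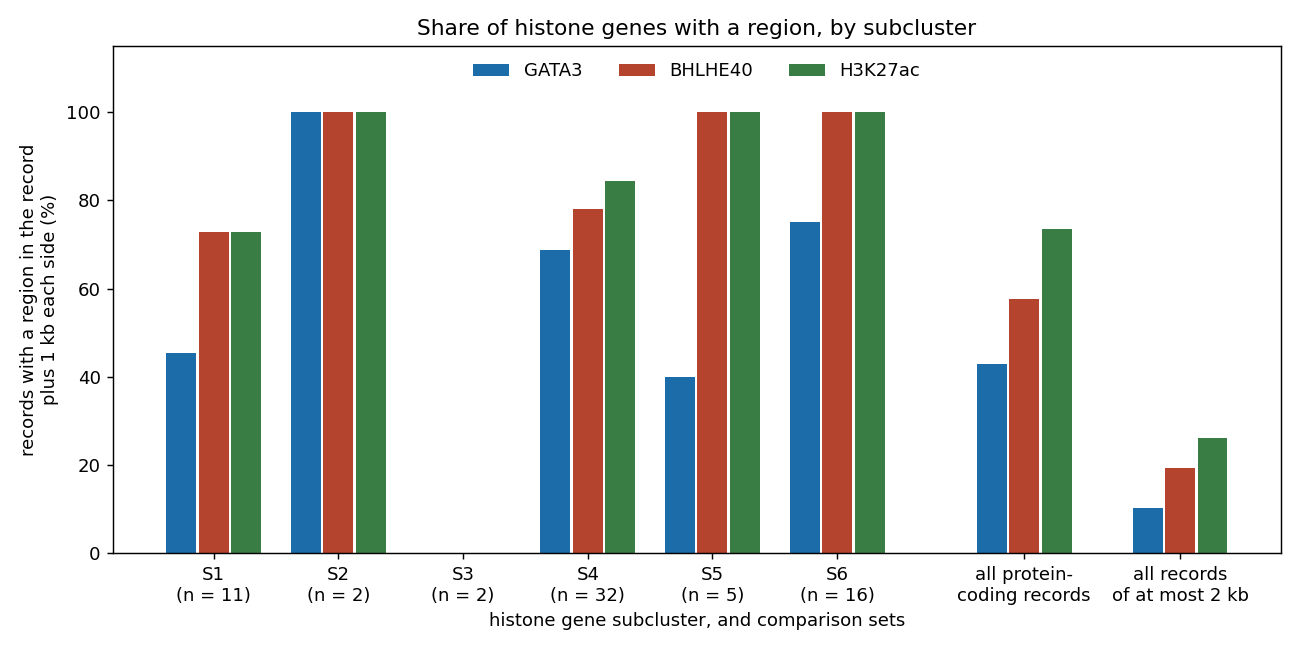
Bars give the percentage of histone genes in each subcluster (S1 to S6, number of genes in brackets) with a GATA3, BHLHE40 or H3K27ac region in the record plus 1 kb on each side. The last 2 sets of bars give all 20037 protein-coding records and the 1257 of them of at most 2 kb. Both sets include histone genes. S3 has no bar because neither of its genes had a region.

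The strength of the lists was not ordered in the same way across subclusters. The median strongest GATA3 signal was 36.4 in S5, where it rests on 1 region shared by 2 genes, then 12.7 in S6, 11.9 in S1, 9.22 in S2 and 7.96 in S4, although S4 held the highest single value, at H4C4. For BHLHE40 the medians were 20.9 in S6, 18.9 in S2, 17.8 in S4, 14.9 in S1 and 11.3 in S5. For H3K27ac they were 7.95 in S2, 7.66 in S1, 6.78 in S5, 5.29 in S4 and 4.28 in S6. S6 was thus highest for BHLHE40 and lowest for H3K27ac. Each S2 median also rests on 1 region, shared by its 2 genes. The S1 median for GATA3 is the value of a region shared by H2BC21, H2AC20 and H2AC21. The share of the window covered by H3K27ac was highest in S4 at H1-3 (91.4%), in S1 at H2AC21 (85.4%), in S5 at H2BC11 (80.5%), in S6 at H2AC15 (75.1%) and in S2 at H2BC26 (63.3%). Among genes with a region, S4 ranged down to H2BC3, with 1.49% of its window covered by the edge of a weak region of signal 3.08 that it shared with H3C3. S1 ranged down to 3.88%, at H2BC18, whose record is 29682 bp long. In S6 the lowest share was 19.1%, at H3C12, in S5 29.7%, at H2BC12, and in S2 62.3%, at H2AC25. Over all 68 genes the median covered share was 52.1% (SD over genes 28.1), and over all protein-coding records, most of them much longer, it was 2.43%. For BHLHE40 it was 78.1% at histone genes and 0.917% over all records.

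The H1 genes encode linker histones, which bind DNA between nucleosomes, and they split into 4 with regions of all 3 lists and 2 with none. Each list was thus found at 66.7% of these 6 genes. The shares of all protein-coding records were 42.8% for GATA3, 57.7% for BHLHE40 and 73.4% for H3K27ac. No region was found at 33.3% of the 6, against 24.0% of all records, and these differences were not tested. H1-4 had signal values of 20.2 for GATA3, 29.8 for BHLHE40 and 5.88 for H3K27ac. H1-3 had 9.32, 29.5 and 5.76, in the same order. H1-5, in S6, had 13.1, 21.8 and 3.25. H1-2 had the weakest GATA3 region of all histone genes, at 4.55, and 10.3 for BHLHE40, but the highest H3K27ac value of its class, at 7.08. H1-1 and H1-6 had no region, and the nearest BHLHE40 summits lay 2833 bp upstream of the H1-1 start and 4198 bp downstream of the H1-6 start. H1-6 is the testis-specific linker histone gene. H2AC1 and H2BC1, which form S3, are likewise known for expression in testis. The nearest H3K27ac summit to the start of H2AC1 was 62553 bp upstream, and the nearest BHLHE40 summit 139660 bp upstream. These 3 testis genes had the H1 box (H1-6) or an octamer and CCAAT (H2AC1 and H2BC1) in their promoters like other genes of their classes.

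The core histone classes differed most in their share with a GATA3 region, and these differences were not tested. H4 genes had a GATA3 region at 11 of 14 and H2A genes at 12 of 17. H2B genes had one at 10 of 18 and H3 genes at 6 of 13. BHLHE40 regions were found at 16 of 17 H2A, 12 of 14 H4, 15 of 18 H2B and 9 of 13 H3 genes. H3K27ac regions were found at 16, 12, 16 and 10 of them, respectively. Over all protein-coding records the shares were 42.8% for GATA3, 57.7% for BHLHE40 and 73.4% for H3K27ac. The H3 genes, at 46.2% for GATA3 and 76.9% for H3K27ac, were near these shares. H3C14 and H3C15, both without a region, have near-identical promoters, and the part of this in the H3 counts was not tested. The H3 class also had the lowest median H3K27ac signal, 4.26, against 7.42 for H4, 5.56 for H2B and 5.48 for H2A. Of the 14 H4 genes, only H4C14 and H4C7 had no region, and H4C9 had BHLHE40 (9.07) and H3K27ac (6.78) without GATA3.

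Among the histone genes were 12 head-to-head pairs of an H2A and an H2B gene, with starts 194 to 248 bp apart (median 238 bp). In the pair H2BC12 and H2AC12 the strand of H2AC12 was not given by the promoter table, and the pair was taken from its spacing. A BHLHE40 region covered all of the stretch between the starts in 11 of the 12 pairs, the exception being H2AC1 and H2BC1. Its signal ranged from 9.67 at H2AC14 and H2BC14 to 37.8 at H2BC21 and H2AC20. Yet only 1 of these 11 regions had its summit between the starts, that of H2AC15 and H2BC15, so most of the regions peaked over or beyond either gene. GATA3 regions reached the stretch in 8 pairs, with 0 summits inside. H3K27ac reached it in 11 pairs but covered a median of 17.3% of the stretch over the 12 pairs, also with 0 summits inside. At H2BC21 and H2AC20, whose stretch is printed above, BHLHE40 and GATA3 each covered 100% of it and H3K27ac 3.83%. Only the H2AC15 and H2BC15 stretch was fully covered by H3K27ac, and it was also the shortest.

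The same arrangement was seen around all gene starts that the promoter table gives, 63 of the 68 genes. Over the window from 250 bases before to 50 after the start, a BHLHE40 region lay at 48 genes (76.2%), against 47.4% of the 15843 protein-coding genes in the table. H3K27ac lay at 47 (74.6%), against 51.7%, and GATA3 at 32 (50.8%), against 20.6%. BHLHE40 regions reached far to both sides: 36.5% of histone genes were still covered at 1500 bp upstream, against 3.62% of all genes, and 39.7% at 1500 bp downstream, against 5.11%. Part of this reach lies over neighbouring histone genes. H3K27ac was interrupted just upstream of the start. It covered 35 of the 63 histone genes (55.6%) at 250 bp upstream, 17 at 100 bp upstream, 35 at the start and 45 (71.4%) at 150 bp downstream. Over all genes the dip was shallower, from 43.8% at 150 bp downstream to 32.0% at 100 bp upstream. At 100 bp upstream H3K27ac was the only list whose coverage of histone genes was below that of all genes.

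**Figure D3:**
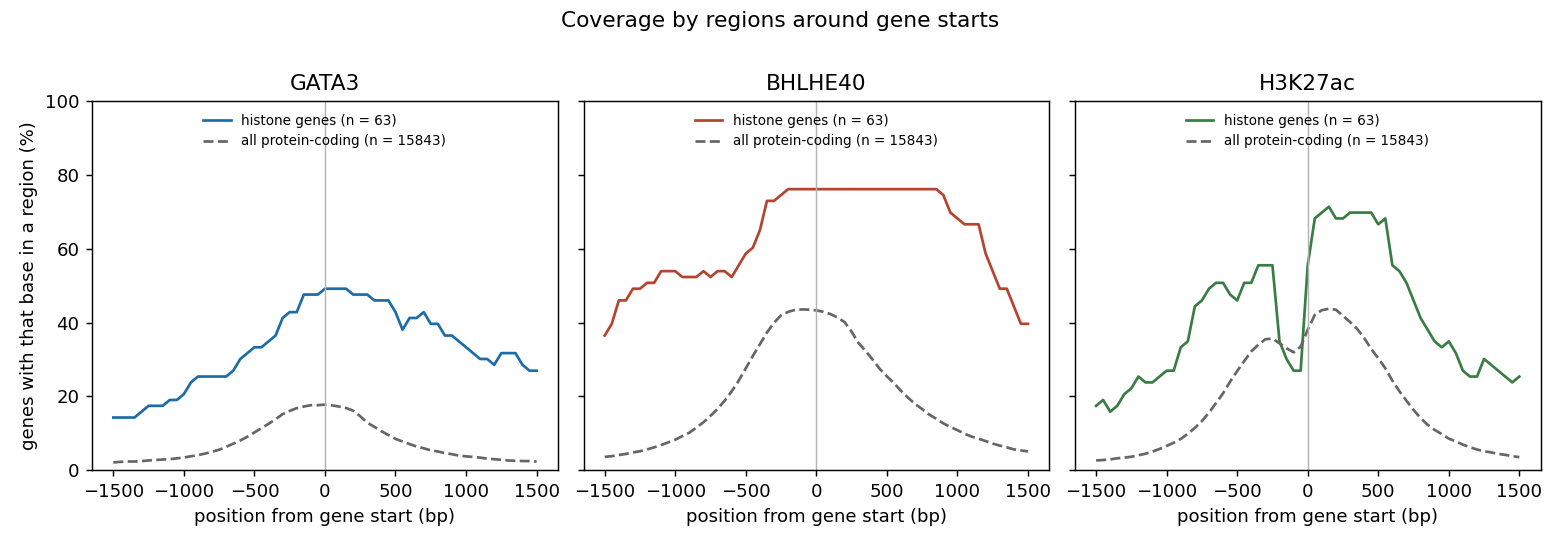
Lines give the percentage of genes whose base at each distance from the gene start (x axis, bp, negative upstream) lies in a GATA3, BHLHE40 or H3K27ac region, for 63 histone genes (solid) and 15843 protein-coding genes (dashed). BHLHE40 is flat at 76.2% across the start of histone genes, and H3K27ac falls to 17 of 63 genes just upstream of it.

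The summits of the regions, where enrichment was highest, mostly lay outside the promoter window. Of the 48 histone genes with a BHLHE40 region over the window, 10 had a summit inside it (20.8%), against 69.4% of all genes with such a region. For GATA3 these were 2 of 32 (6.25%), against 43.3%, and for H3K27ac 4 of 47 (8.51%), against 29.0%. Regions at histone genes were wider than those of the whole lists (for BHLHE40 a median of 2491 bp against 739 bp). Many were also shared by neighbouring genes, so that these genes had a summit in common. The part of width and sharing in these shares was not tested. Among genes of at most 2 kb with a BHLHE40 region over the window, the summit nearest the start lay inside the record in 18 of 42, past its end in 11, within 250 bp upstream in 4 and farther upstream in 9. By the same count, H3K27ac summits lay inside the record in 28 of 41 genes and GATA3 summits in 13 of 27. At H4C4 the nearest BHLHE40 summit was 3 bp upstream of the start and the GATA3 summit 569 bp downstream of it, past the end of the record.

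GATA3 and BHLHE40 summits also lay apart from each other within regions that both lists shared. In the 31 GATA3 regions at histone genes that overlapped BHLHE40, the median distance between the GATA3 summit and the nearest BHLHE40 summit was 571 bp, and 7 of the 31 lay within 50 bp. Over all 14123 such GATA3 regions the median was 35 bp, and 8680 lay within 50 bp. Width moved with this distance. Among all shared GATA3 regions of at least 1760 bp the median was 87.0 bp (506 regions, 215 within 50 bp), and among the 16 of that width at histone genes it was 604 bp, with 4 within 50 bp. At the pair H2BC21 and H2AC20, 2 GATA3 regions overlapped the BHLHE40 region, with summits 32 and 888 bp from its summit.

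**Figure D4:**
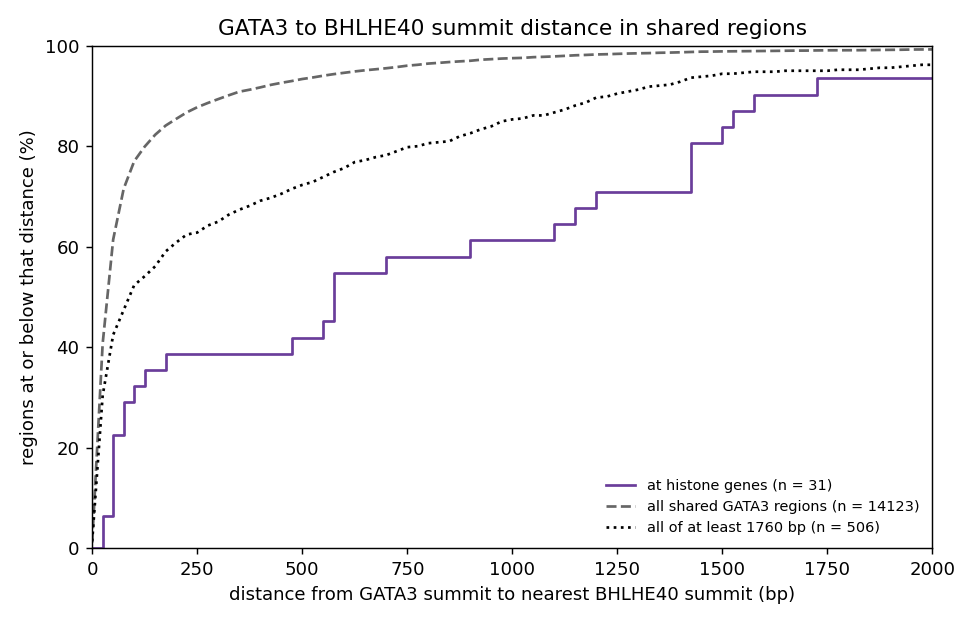
Each line gives the percentage of GATA3 regions (y axis) whose summit lies at or below a given distance (x axis, bp) from the nearest BHLHE40 summit, for shared regions at histone genes (solid, 31), all shared GATA3 regions (dashed, 14123) and those of at least 1760 bp (dotted, 506). The histone gene line runs below both others, with a median of 571 bp.

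The motifs of the factors were looked for in the promoter window of each gene. The E-box CACGTG was in 0 of 63 histone promoters, against 8.88% of all 15843, and 48 of the 63 had a BHLHE40 region over them. The looser E-box CANNTG, which includes CACGTG, was in 44 (69.8%), against 64.5%. GATAA was in 17 of 63, against 18.2%. It was in 5 of the 32 histone promoters with a GATA3 region over them and in 12 of the 31 without. Over all promoters the shares were 17.5% with a GATA3 region and 18.4% without, so the 15.6% of histone promoters with a region was near the general share. Both strands were searched in the window of 300 bases, with 1 promoter per gene, and no match says nothing about the rest of these wide regions. H4C4, with the strongest GATA3 region, had no GATAA in the window, and H1-4 had a match, TTATC on the printed strand.

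Other elements differed by histone class. The octamer was in 14 of 18 H2B and 11 of 16 H2A promoters, in 1 of 11 H3 promoters and in 0 of 6 H1 and 0 of 12 H4 promoters, against 1.70% of all genes. The H3 promoter was that of H3C4, which shares its start with H2AC7. CCAAT was in every H1, H2A, H2B and H3 promoter and in 3 of 12 H4 promoters, 54 of 63 in all, against 36.4%. TATAAA was in 41 of 63 (65.1%), against 9.63%. The H1 box was in 6 of 6 H1 promoters and in 3 others, against 4.24% of all genes. H1-1 and H1-4 thus share the CCAAT box, the TATA box and the H1 box, as printed above, while their regions differ.

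Copies within the clusters bear on where reads can be placed. Of 1952 pairs of histone promoters at separate places, 4 were at least 95% identical, and the median identity was 50.9%. H4C14 and H4C15 were identical over 300 of 300 bases, H2AC18 and H2AC19 were 99.3% identical, H4C11 and H4C12 98.3% and H3C14 and H3C15 97.4%. The next pair, H2AC13 and H2AC14, was 86.8% identical. In the inverted copy of S1, H3C14 and H3C15 had no region, and no region of any list lay over the starts of H2AC18 and H2AC19. Between those starts, which are separated by 8310 bases, the outermost H3K27ac regions stopped 595 bp from the H2AC18 start and 586 bp from the H2AC19 start. The BHLHE40 regions stopped 609 and 597 bp away, so for these lists the edges on both sides lay at similar distances from the copies. GATA3 had 1 region there, which stopped 759 bp from the H2AC18 start and 6038 bp from the H2AC19 start. H4C14 had no region, and the regions counted at H4C15, whose record spans 16753 bp, lay 10684 bp or more from its start. The copies H4C11 and H4C12 in S6 did have regions of all 3 lists, with BHLHE40 at 12.5 and 8.42, GATA3 at 12.1 and 10.1 and H3K27ac at 8.06 and 7.64. How the reads of such copies were placed is not given in the sources used here, and its part in the missing regions was not tested. Without the 8 genes of these pairs, GATA3 regions were found at 39 of 60 genes, BHLHE40 at 51 and H3K27ac at 53.

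A larger share of the histone genes than of the genes around them had a region of each list. Inside the 6 subclusters lay 3 other protein-coding records, and 0 of them had a region of any list. Inside or within 250 kb of a subcluster were 40 other records, these 3 included. Of the 40, 10 had a GATA3 region (25.0%), 13 BHLHE40 (32.5%) and 26 H3K27ac (65.0%).

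The histone variant genes listed for comparison, which lie elsewhere in the genome, had GATA3 at 6 of 11 (54.5%), BHLHE40 at 9 (81.8%) and H3K27ac at 10 (90.9%). Over all protein-coding records the shares were 42.8%, 57.7% and 73.4%. These rates were similar to those of the replication-dependent genes. Some variant records, such as MACROH2A1 and MACROH2A2, are much longer, so the windows are not alike. H3-3B, which encodes the variant H3.3, had the highest BHLHE40 value of this list, 35.8, with 21.2 for GATA3 and 9.42 for H3K27ac. H2AZ2, of the variant H2A.Z, had 45.8 for GATA3. H2AJ had no region. Of 12 genes for histone gene transcription, 12 had H3K27ac and 11 BHLHE40, but 3 had GATA3 (25.0%, below the 42.8% of all records). These 3 were NPAT, with 9.04, POU2F1, which encodes OCT1, with 20.1, and the acetyltransferase gene CREBBP with 50.1. Of 14 genes listed for histone mRNA processing, 13 were found among the protein-coding records. All 13 had BHLHE40 and H3K27ac, against 57.7% and 73.4% of all records, and 9 had GATA3 (69.2%, against 42.8%). SLBP, whose protein binds the stem-loop, had the strongest H3K27ac region of that list, 20.7, and 24.0 for BHLHE40, with no GATA3 region. These genes are mostly long, and their counts are read against the share over all records.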

How the data were processed

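ChIP-seq regions of 3 groups of Ctrl_LV Jurkat cells were used, as 1 deposited narrowPeak list per antibody. Per the submitters' processing notes the data were made with bcl2fastq 2.20 and MACS2 on hg38, and the aligner and its handling of repeated sequence are not given in the sources used here. The factor lists hold the authors' score (540 to 1000), which marks regions repeated between the samples at an irreproducible discovery rate of 0.05 by the deposited list names, whereas for H3K27ac the name says pooled. The signal value and the −log10 q-value of each region are the authors' deposited values, of which the signal ranks regions within a list. A list keeps only regions past its threshold, so an absent region is no measure of zero binding.

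A region counted for a gene when it overlapped the record plus 1 kb on each side by at least 1 bp. Gene records and promoters came from RefSeq tables of GRCh38.p14, with 63 of 68 genes matched to a promoter (none for H4C1, H4C3, H2AC12, H3C11 and H3C12). Coordinates are 1-based. Promoter identity is the share of identical columns in a global alignment (Biopython 1.88). Python 3.11.15, numpy 2.4.6, pandas 2.3.3 and matplotlib 3.10.9 were used. On simulated data, 200 of 200 planted regions were assigned as planted over 8263 records, with 0 false records. The histone genes and the gene lists were chosen with earlier results of these data known. Named are all H1 genes, the 3 strongest genes per list, genes with no region, the extremes of H3K27ac coverage per subcluster, the pairs described and near-identical copies; H2BC6, H4C9, H3C3, and the genes named from the related lists were chosen after their values were seen. A planned comparison of histone proteins was not run, as no protein sequences were used here.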

Additional observations from a re-analysis of the deposited data

How the results depend on the processing

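Of 40 alternative values for 7 results (25 planned, 15 chosen after seeing the data), 34 stayed within 1.5 times of the count or within 1 SD over genes. The number of genes with no region depended on the window: it was 9 in the record plus 1 kb, 14 in the record alone, 4 with 5 kb on each side, and 15 of 63 in the promoter window of 300 bases. For the first 3 windows these were 13.2%, 20.6% and 5.88% of the 68 genes, against 24.0%, 26.0% and 19.1% of all protein-coding records. For the promoter window the share of all genes with no region is not given here. The median share covered by H3K27ac, 52.1%, was 98.3% in the record alone and 19.0% with 5 kb on each side, since the denominator changes with the window. A gap of 1 Mb joined the 4 subclusters of chromosome 6 and left 3 in place of 6, and a gap of 100 kb left 6. When factor regions needed a score of 830 and H3K27ac regions a −log10 q of 5, regions were found at 38 genes for GATA3, 56 for BHLHE40 and 56 for H3K27ac. These were 55.9%, 82.4% and 82.4% of the 68 genes, against 35.4%, 52.3% and 58.1% of all protein-coding records. No paired analysis was possible because the lists give 1 value for 2 samples together, and leaving out a sample was not possible for the same reason. Since sample depth is unknown, weak regions missed for lack of reads cannot be told from absent ones.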

Other observations

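Genes that act alongside the histone genes in S phase were occupied by BHLHE40 and H3K27ac throughout and by GATA3 less evenly. All 14 replication factor genes had BHLHE40 and H3K27ac regions, against 57.7% and 73.4% of all protein-coding records, and 6 had GATA3 (42.9%, against 42.8%). MCM7, a subunit of the replicative helicase, had the highest BHLHE40 value of this list, 43.3, and PCNA, the sliding clamp, had 15.2 for BHLHE40, 9.13 for GATA3 and 9.21 for H3K27ac. All 12 histone chaperone genes had BHLHE40 and H3K27ac regions, read against the same shares, and 9 had GATA3 (75.0%). HIRA, which deposits H3.3, had the highest GATA3 value among them, 31.5. MCM2 is counted here as a chaperone of H3 and H4. These lists are short and their genes were not compared with the histone genes by a test.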
